A study of Mus musculus with 6 samples.

Results

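Interferon signalling and response genes were examined in senescent and proliferating mouse hepatic stellate cells, the liver pericytes that make scar matrix after injury. The list holds 46 genes, named by symbol, from the interferon receptors to the antiviral effectors. Each was read from the Affymetrix probe set (a group of short probes for 1 transcript) that the platform annotation gives to that symbol only, taking the one with the highest mean over the 6 arrays. Of the 46, 44 were measured, among 18194 genes in all. Isg15 and Ifi44 had no probe set of their own under this rule and were not analysed here.

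Senescent cells (3 arrays) are labelled as controls that express p53. Proliferating cells (3 arrays) received doxycycline at 1 ug/ml and are labelled as having p53 knocked down. Both groups carry the transgenes CMV-rtTA and TRE-GFP-shRNA.p53.1224 on a C57Bl/6 background, so that doxycycline switches on a hairpin RNA against p53 together with green fluorescent protein. Doxycycline, the hairpin, the fluorescent protein, the p53 state and proliferation therefore differ together between the groups, and their effects cannot be told apart here. The labels do not say whether the arrays of a group came from different animals or cultures, and every p-value here therefore reflects array-to-array spread that could be purely technical.

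In the canonical pathway, type I interferons bind the receptor chains IFNAR1 and IFNAR2, and interferon gamma binds IFNGR1 and IFNGR2. Janus kinases on these receptors phosphorylate STAT proteins. STAT2 with IRF9 forms part of a factor that binds the interferon-stimulated response element of many antiviral genes, while gamma-activated sites serve the interferon gamma response. Low-level signalling of this kind keeps receptor, factor and sensor genes at a basal level in unstimulated cells, while other antiviral genes are nearly silent until interferon arrives.

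Relative to most other genes, senescent cells had less RNA of 17 of the 44 genes and more of 1. The lower genes included the type I receptor chain Ifnar1 (1.52-fold, log2 change -0.61 ± 0.08, SE, n = 3 per group), the factors Irf1 (1.71-fold) and Irf9 (1.70-fold), the RNA sensor Ifih1 (1.79-fold) and the ADP-ribosyltransferase Parp14 (1.89-fold). Only Ifit3 was called higher, by 1.31-fold. A call means an adjusted p under 0.05 from limma over all genes. Across all genes that call was made lower for 10.5% and higher for 9.49%, against 38.6% and 2.27% of the interferon genes. The list was chosen with earlier results of these data known, so these shares are a description and were not tested. The median log2 change was -0.17 over the 44 and -0.0018 over all genes. Most changes were modest, since 8 of the 17 reached 1.5-fold and none of the 44 reached a log2 change of -1.

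Levels below are log2 values after RMA (robust multi-array average), which sets all arrays to 1 distribution, so each change is relative to other genes. Array medians lay between 6.15 and 6.19, and correlations across probe sets were 0.995 to 0.997 within groups and 0.989 to 0.992 between them. Scaling the arrays to the poly-A spike-ins, RNAs added before labelling, would move the median of all genes to -0.60, and each change given here would shift by about that amount. With that scaling 41 members were lower and 0 higher, where over all 18194 genes 15146 were lower and 175 higher. The 11 members above 0 here, Ifit3 among them (-0.21, not called), were all below 0 with it. The spike-in probe sets, read after RMA, averaged 11.13, 10.99 and 11.51 on the senescent arrays. On the proliferating arrays they averaged 10.72, 10.52 and 10.60, so the scaling itself varies between arrays of a group. Centring arrays on genes of middle level instead moved the calls over all genes to 2298 higher and 1338 lower, against 1726 higher and 1919 lower. The p53 targets Cdkn1a and Mdm2 were 3.34-fold and 2.32-fold higher in senescent cells, as the group labels imply. The background was put at 5.57, below which 95% of the means of 44 probe sets for olfactory receptors lay. Of 12 stellate cell markers 9 exceeded it, and the vitamin A and developmental markers Lrat, Reln and Lhx2 did not. These markers changed too, and 4 of the 12 were lower in senescent cells. The growth factor receptor Pdgfrb changed by -1.30 ± 0.10 (2.46-fold), more than any of the 44 measured members. The factor Hand2 (-0.85) and the collagen genes Col1a1 (-0.56) and Col1a2 (-0.49) were the other lower markers, and Timp1 was higher (0.76). The summed level of the 12 was 16.73 to 16.75 on the senescent and 16.73 to 16.76 on the proliferating arrays. Sums here add unlogged values, so the brightest markers, Col1a2, Vim and Acta2 (means of 14.71, 14.71 and 14.51), set most of this one. It barely registers dimmer markers such as Pdgfrb (mean of 10.69) and cannot decide whether stellate cell content was alike.

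Markers of other liver cell types were read beside the members, immune cells first, since they express interferon genes strongly. Of 10 macrophage markers, 6 lay above background, and Ptprc, Adgre1, Itgam and Cd5l did not. Their summed level was 10.15 to 10.25 (log2) on the senescent and 10.18 to 10.21 on the proliferating arrays, and Csf1r alone was called, higher by 0.35. The 7 measured lymphocyte and plasmacytoid dendritic cell markers summed to 8.49 to 8.70 in senescent and 8.48 to 8.61 in proliferating cells, with 4 above background and none called. Of 4 biliary markers, all above background, Krt19 was higher (0.58) and Krt7 lower (-0.69), with sums of 11.30 to 11.45 in senescent and 10.97 to 11.03 in proliferating cells. Of 8 endothelial markers 1 lay above background, and Cdh5 was called higher (at least 1.12-fold), with sums of 8.53 to 8.56 in senescent and 8.33 to 8.53 in proliferating cells. Of 7 hepatocyte markers 3 lay above background, and Ahsg was called lower (at least 1.16-fold), with sums of 8.26 to 8.52 in senescent and 8.41 to 8.68 in proliferating cells. These sums too are led by the brightest markers, such as Cd14 (mean of 9.08) for macrophages and Krt19 (10.86) for biliary cells. The part of these marker differences in the changes of the members was not tested. In bulk RNA, fewer cells with a transcript and less of it per cell cannot be told apart.

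**Figure D1:**
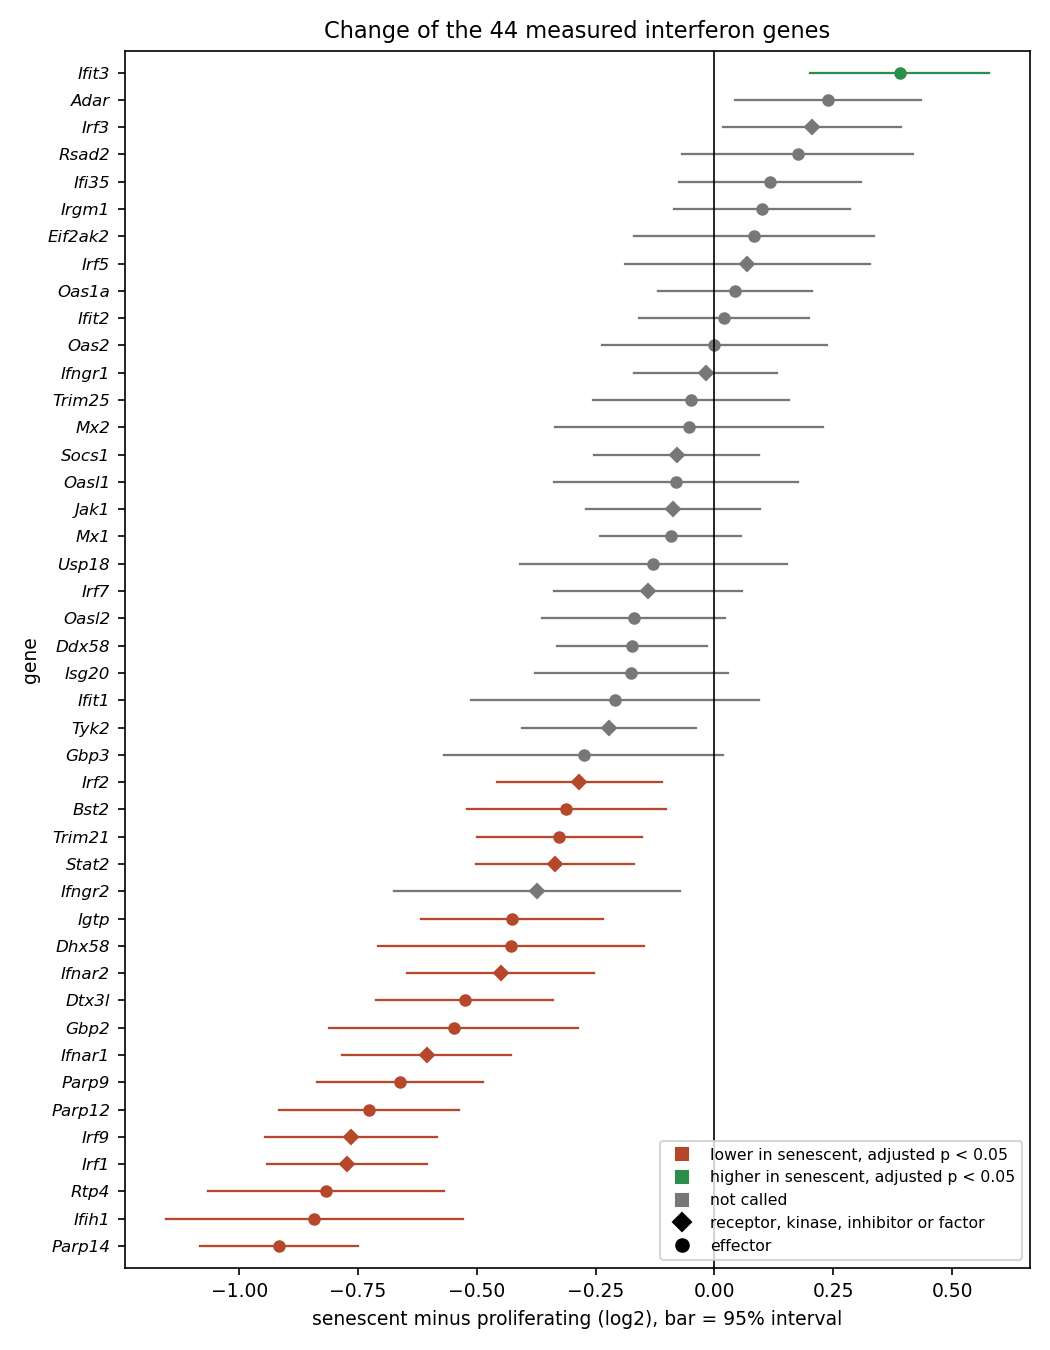
Senescent minus proliferating change (log2, horizontal axis) of the 44 measured interferon genes with 95% intervals from limma; diamonds are receptors, kinases, the inhibitor and factors, circles are effectors. The 17 genes called lower run from Parp14 at -0.92 to Irf2 at -0.28, and Ifit3 at 0.39 is the one called higher. Under spike-in scaling Ifit3 was at -0.21 and not called in either direction.

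The promoters of the members were searched for both response elements. RefSeq windows of 300 bases (250 before and 50 after the gene start) were found for 36 of the 44 genes, some with several starts. The interferon-stimulated response element was searched as GAAA, any 2 bases and GAAA again, and the gamma-activated site as TTCNNNGAA, on both strands. The first was present for 16 of 36 members (44.4%), against 524 of 14453 genes on the array with a window (3.63%). The second was present for 12 members (33.3%), against 8.57% of the same genes. Both were found for 5 members, and in 1 of these the letters overlapped. Among members called lower, 7 of 13 had the first motif, and among members not called 8 of 22 did, a difference that was not tested. The windows below show the 2 largest called changes with a match in each class, receptors and factors first. Capitals mark the match, which begins and ends with TTTC where it lies on the opposite strand.
Stat2 promoter (GRCm38.p6, chr10:128270248-128270547, plus strand): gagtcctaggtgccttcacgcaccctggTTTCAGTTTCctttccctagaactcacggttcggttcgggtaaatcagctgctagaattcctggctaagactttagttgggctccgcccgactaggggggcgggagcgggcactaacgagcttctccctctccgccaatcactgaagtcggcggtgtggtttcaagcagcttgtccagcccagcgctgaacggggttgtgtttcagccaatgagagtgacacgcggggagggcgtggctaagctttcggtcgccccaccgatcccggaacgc
Irf2 promoter (GRCm38.p6, chr8:46739495-46739794, plus strand): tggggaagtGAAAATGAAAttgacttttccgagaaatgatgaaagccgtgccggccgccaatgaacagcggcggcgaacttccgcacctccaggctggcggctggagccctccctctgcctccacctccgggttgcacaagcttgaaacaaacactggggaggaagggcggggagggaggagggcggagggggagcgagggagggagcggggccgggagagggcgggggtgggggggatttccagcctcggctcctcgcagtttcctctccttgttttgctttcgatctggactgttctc
Ifih1 promoter (GRCm38.p6, chr2:62646206-62646505, minus strand): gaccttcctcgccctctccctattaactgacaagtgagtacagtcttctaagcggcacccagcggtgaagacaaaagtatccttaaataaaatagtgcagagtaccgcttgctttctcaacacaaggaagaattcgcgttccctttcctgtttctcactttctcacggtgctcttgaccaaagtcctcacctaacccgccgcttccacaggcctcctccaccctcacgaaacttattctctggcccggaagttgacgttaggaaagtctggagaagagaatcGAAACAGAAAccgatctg
Gbp2 promoter (GRCm38.p6, chr3:142620413-142620712, plus strand): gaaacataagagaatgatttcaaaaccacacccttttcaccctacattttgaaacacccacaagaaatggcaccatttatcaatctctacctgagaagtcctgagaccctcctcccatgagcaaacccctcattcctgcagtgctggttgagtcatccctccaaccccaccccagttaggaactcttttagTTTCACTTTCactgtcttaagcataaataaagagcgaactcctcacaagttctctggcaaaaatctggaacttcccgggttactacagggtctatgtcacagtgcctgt

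The match began 222 bases before the start of Stat2, 241 before that of Irf2 and 59 before that of Gbp2, and 32 bases after that of Ifih1. For Irf1, Irf9 and Parp12 the letters of the first motif were not in these windows, and the window of Irf1 held the second. A match describes the sequence only.

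The 2 chains of the type I interferon receptor were lower in senescent cells. Ifnar1, the signalling chain, read 9.02, 8.87 and 8.80 on the senescent arrays, against 9.51, 9.50 and 9.49 on the proliferating arrays. All senescent values lay below all proliferating values, and the change was -0.61 ± 0.08 (log2, SE, adjusted p = 0.00125). Its second probe set, with a mean at or below background, was lower by a similar amount (-0.72, adjusted p = 0.0132 over all probe sets). Ifnar2, the chain that binds interferon most tightly, read 10.31, 10.21 and 10.21 in senescent and 10.85, 10.64 and 10.60 in proliferating cells. The groups did not overlap and the change was -0.45 ± 0.09 (1.37-fold, adjusted p = 0.00772). All 3 of its probe sets were called lower, with changes of -0.45, -0.89 and -0.53.

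The interferon gamma receptor gave no call. Ifngr1, the ligand-binding chain, read 10.00, 9.94 and 9.99 in senescent and 9.95, 10.00 and 10.02 in proliferating cells. The values overlapped, and the 95% interval of the change ran from -0.17 to 0.13. Ifngr2, the signalling chain, read 9.17, 8.77 and 8.62 in senescent and 9.18, 9.25 and 9.23 in proliferating cells. Every senescent value was below every proliferating value, but senescent replicate 1 lay close to them. The change of -0.37 ± 0.13 did not pass (adjusted p = 0.0862), and without senescent replicate 1 it was -0.53 and passed (adjusted p = 0.00900). Whether the type I and gamma receptor changes differ was not tested.

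Neither Janus kinase was called. Jak1, which serves both receptor types, read 11.05, 10.84 and 10.87 in senescent cells, against 11.05, 11.02 and 10.95 in proliferating cells, a change of -0.09 ± 0.08. Tyk2, the partner kinase of the type I receptor, read 7.97 to 8.06 in senescent and 8.11 to 8.34 in proliferating cells. These values did not overlap, but the change of -0.22 ± 0.08 missed the threshold (adjusted p = 0.0918) and its second probe set gave 0.08. Socs1, the feedback inhibitor of Janus kinases, was below background on all 6 arrays.

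**Figure D2:**
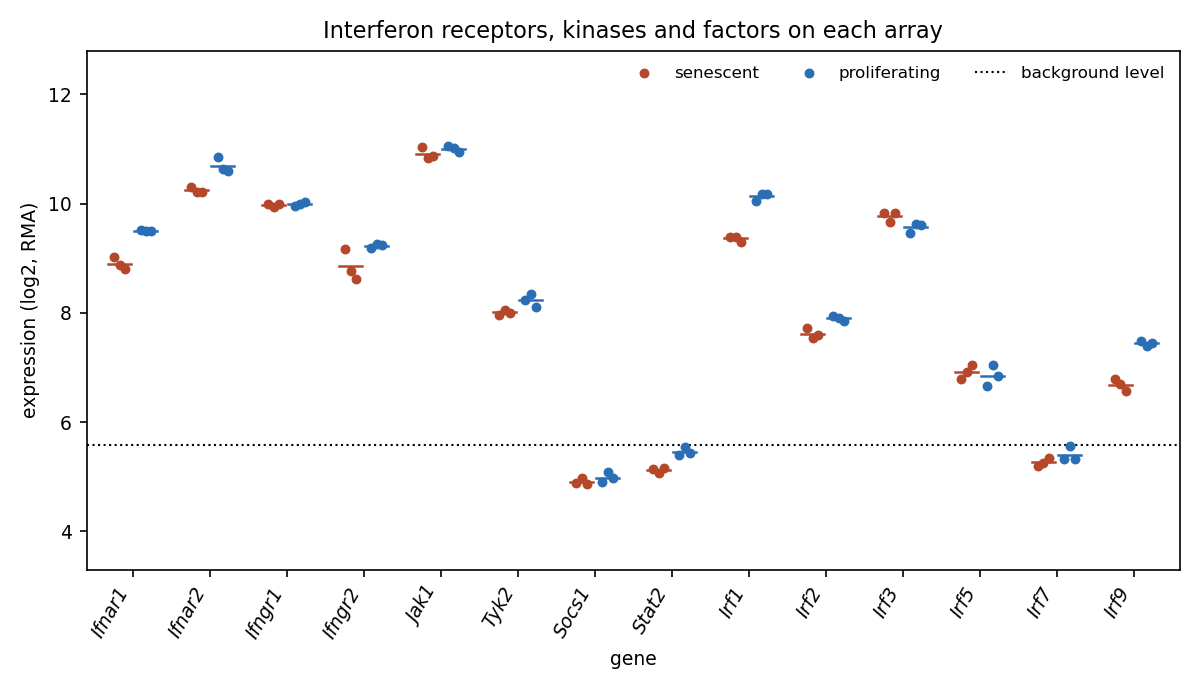
Level (log2, RMA, vertical axis) of the 14 receptor, kinase, inhibitor and factor genes on each senescent (left, red) and proliferating (right, blue) array; short lines are group means and the dotted line is the background level of 5.57. Ifnar1, Ifnar2, Irf1 and Irf9 show separated groups above background, and Socs1, Stat2 and Irf7 lie below it on every array.

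Among the factors, Irf1 and Irf9 carried the largest changes. Irf1, an interferon gamma-induced activator, read 9.39, 9.39 and 9.30 in senescent and 10.04, 10.19 and 10.18 in proliferating cells. The gap between the groups was several times the spread within them, with a change of -0.77 ± 0.07 (adjusted p = 3.22e-04). Irf9, the DNA-binding partner of STAT2, read 6.78, 6.70 and 6.56 in senescent and 7.48, 7.40 and 7.45 in proliferating cells. It too was separated, by -0.76 ± 0.08 (adjusted p = 4.71e-04), and both calls held with any 1 array left out.

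Stat2 was called lower, with a change of -0.34 ± 0.07 (adjusted p = 0.0133), but all 6 arrays lay below background (5.14, 5.07 and 5.15 in senescent, 5.40, 5.55 and 5.43 in proliferating cells), so no fold is given. That call ended without proliferating replicate 2 (-0.29, adjusted p = 0.0555). Irf2, which antagonises Irf1 at shared sites, read 7.72, 7.53 and 7.59 in senescent and 7.94, 7.91 and 7.86 in proliferating cells, a change of -0.28 ± 0.08 (adjusted p = 0.0316). Its groups were separate by a small margin, and the call ended when senescent replicate 2 or 3 or any proliferating replicate was left out (-0.31 to -0.24).

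The factors that start interferon production did not pass. Irf3, which is activated by phosphorylation after viral sensing, read 9.82, 9.67 and 9.83 in senescent and 9.47, 9.63 and 9.61 in proliferating cells. The senescent values were all above the others on this scale, by 0.20 ± 0.08 (adjusted p = 0.123). Of its 4 probe sets, the others gave 0.21, 0.03 and, for the dimmest, -0.26, and none was called. Irf5 overlapped between groups, with 6.78, 6.93 and 7.05 in senescent and 6.66, 7.04 and 6.85 in proliferating cells. Irf7, the interferon-induced amplifier of interferon production, was below background on every array. Taking the 14 receptors, kinases, inhibitor and factors, 6 were lower (42.9%, against 10.5% of all genes) and 0 higher (against 9.49%). Their median was -0.25. By limma 9 of the 14 had an unadjusted p under 0.05, as did 31.5% of all genes.

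Of the 30 effectors, 11 were lower and 1 higher, with a median log2 change of -0.17. These were 36.7% and 3.33%, against 10.5% and 9.49% of all genes. The PARP group was lower in all 4 of its genes. Parp14, an ADP-ribosyltransferase that modulates interferon signalling, read 5.99, 5.96 and 5.82 in senescent and 6.85, 6.84 and 6.84 in proliferating cells. That was the largest fitted fall of the list, at -0.92 ± 0.07 (adjusted p = 1.40e-04), and the groups were far apart. Its second probe set, with a mean below background, gave -0.13.

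Parp12, an antiviral ADP-ribosyltransferase, read 8.47, 8.50 and 8.34 in senescent and 9.23, 9.21 and 9.05 in proliferating cells, a change of -0.73 ± 0.08 (adjusted p = 7.30e-04). Parp9, which works in a complex with DTX3L, read 8.18, 8.08 and 8.02 in senescent and 8.76, 8.68 and 8.82 in proliferating cells (-0.66 ± 0.08, adjusted p = 7.88e-04). Dtx3l, the ubiquitin ligase of that complex, read 7.91, 8.12 and 8.06 in senescent and 8.63, 8.50 and 8.54 in proliferating cells (-0.53 ± 0.08, adjusted p = 0.00294). In none of these genes did the groups overlap, both probe sets of Dtx3l were called lower, and the 4 calls held with any 1 array left out.

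The 3 genes for sensors of viral RNA all read lower in senescent cells, without overlap of the groups. Of these, 2 were called, too few to set against the shares of all genes, and differences between them were not tested. Ifih1, which encodes the long double-stranded RNA sensor MDA5, read 7.67, 7.66 and 7.14 in senescent and 8.34, 8.33 and 8.32 in proliferating cells. Senescent replicate 3 was the lowest, yet the change of -0.84 ± 0.14 (adjusted p = 0.00370) held with any 1 array left out. Ddx58, which encodes RIG-I, the sensor of RNA with a 5′ triphosphate, read 8.92, 8.90 and 8.94 in senescent and 9.16, 9.10 and 9.02 in proliferating cells. Its groups did not overlap, but the change was small and missed the threshold (-0.17 ± 0.07, adjusted p = 0.124). The dimmest Ddx58 probe set, with a mean below background, was called lower (-0.40, limma, adjusted p = 0.0128 over all probe sets). The remaining Ddx58 probe set gave -0.06 and was not called. Dhx58, which encodes the regulator LGP2, was called lower (-0.43 ± 0.12, adjusted p = 0.0409) with both group means below background, so no fold is given. The Dhx58 call ended without senescent replicate 1 or 2 or any proliferating replicate (-0.48 to -0.34).

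Ifit3 went the other way from most members. IFIT proteins bind viral RNA, and IFIT3 stabilises the complex. Ifit3 read 7.73, 7.70 and 7.54 on senescent and 7.31, 7.32 and 7.17 on proliferating arrays, all senescent values being above the others. The change was 0.39 ± 0.08 (adjusted p = 0.0119), with the near-identical copy Ifit3b as a possible source of the signal, and it was 0.35 (adjusted p = 0.0502) without senescent replicate 1. Under spike-in scaling it was -0.21 and was not called (limma, adjusted p = 0.316), so that scaling gives it no settled direction. Ifit2 read 9.71, 9.79 and 9.58 in senescent and 9.72, 9.66 and 9.63 in proliferating cells, and Ifit1 read 5.91, 5.88 and 5.41 in senescent and 6.03, 5.89 and 5.91 in proliferating cells. Both overlapped between groups, with intervals of -0.16 to 0.20 for Ifit2 and -0.51 to 0.09 for Ifit1.

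Several of the most interferon-inducible effectors were near background in both groups. The antiviral GTPase gene Mx1, which is defective in C57BL/6 mice, the OAS-like genes Oasl1 and Oasl2, and Usp18, the deconjugase of ISG15 and an inhibitor of the type I receptor, were below background on all 6 arrays. Oas1a, a synthetase of the 2-5A messenger that activates RNase L, read 7.72, 7.77 and 7.69 in senescent and 7.60, 7.72 and 7.73 in proliferating cells. Its interval was -0.12 to 0.21. Oas2 read 5.88, 6.04 and 6.20 in senescent and 6.06, 6.16 and 5.91 in proliferating cells, with an interval of -0.24 to 0.24. None of the 4 OAS genes was called (limma, 0 at an unadjusted p under 0.05).

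The 5 members listed as blocks to viral entry and growth moved little. Ifitm1, which also restricts viral entry, is in the further pathway list below and was called lower there (-1.88). Bst2, which encodes tetherin, a tether of budding virions, read 7.98, 8.21 and 8.24 in senescent and 8.47, 8.36 and 8.54 in proliferating cells. The groups were separate but close, and the call (-0.31 ± 0.09, adjusted p = 0.0456) ended with any 1 array left out (-0.36 to -0.23). Isg20, an exonuclease, had a change of -0.17 ± 0.09, Mx2 of -0.05 ± 0.12 and Rsad2, which encodes viperin, of 0.18 ± 0.11. These 3 overlapped between groups and were not called.

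Ubiquitin ligases and GTPases of the response split. Trim21, an antibody receptor in the cytosol and ubiquitin ligase, read at most 7.12 in senescent and at least 7.28 in proliferating cells. Its groups did not overlap and the change was -0.33 ± 0.08 (adjusted p = 0.0182), with the call lost without senescent replicate 1 or 2 or proliferating replicate 2 (-0.33, -0.30 and -0.30). Trim25, the ligase that activates RIG-I, had a change of -0.05 ± 0.09. Gbp2, a guanylate-binding protein gene that interferon gamma induces, read 6.84, 6.60 and 6.38 in senescent and 7.22, 7.15 and 7.10 in proliferating cells. All senescent arrays were lower, both probe sets were called lower (-0.55 and -0.45), and the change was -0.55 ± 0.11 (adjusted p = 0.0114). Gbp3 was below background on all senescent arrays and on 1 proliferating array, and was not called (-0.28 ± 0.13).

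The immunity-related GTPase genes Igtp and Irgm1 differed in their calls. Igtp read 7.51, 7.44 and 7.47 in senescent and 7.97, 7.75 and 7.98 in proliferating cells, a change of -0.43 ± 0.08 (adjusted p = 0.00863). Irgm1, a regulator of these GTPases and of autophagy, overlapped at 10.04, 10.21 and 10.02 in senescent and 10.05, 10.01 and 9.91 in proliferating cells, with an interval of -0.09 to 0.28. The transmembrane chaperone gene Rtp4 read 6.37, 6.45 and 6.39 in senescent and 7.45, 7.18 and 7.03 in proliferating cells. It was 1.76-fold lower (-0.82 ± 0.11, adjusted p = 0.00146) with proliferating replicate 1 the highest. Its second probe set, below background, gave -0.0036. Ifi35, whose protein partners NMI, overlapped between groups, with a change of 0.12 ± 0.08.

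**Figure D3:**
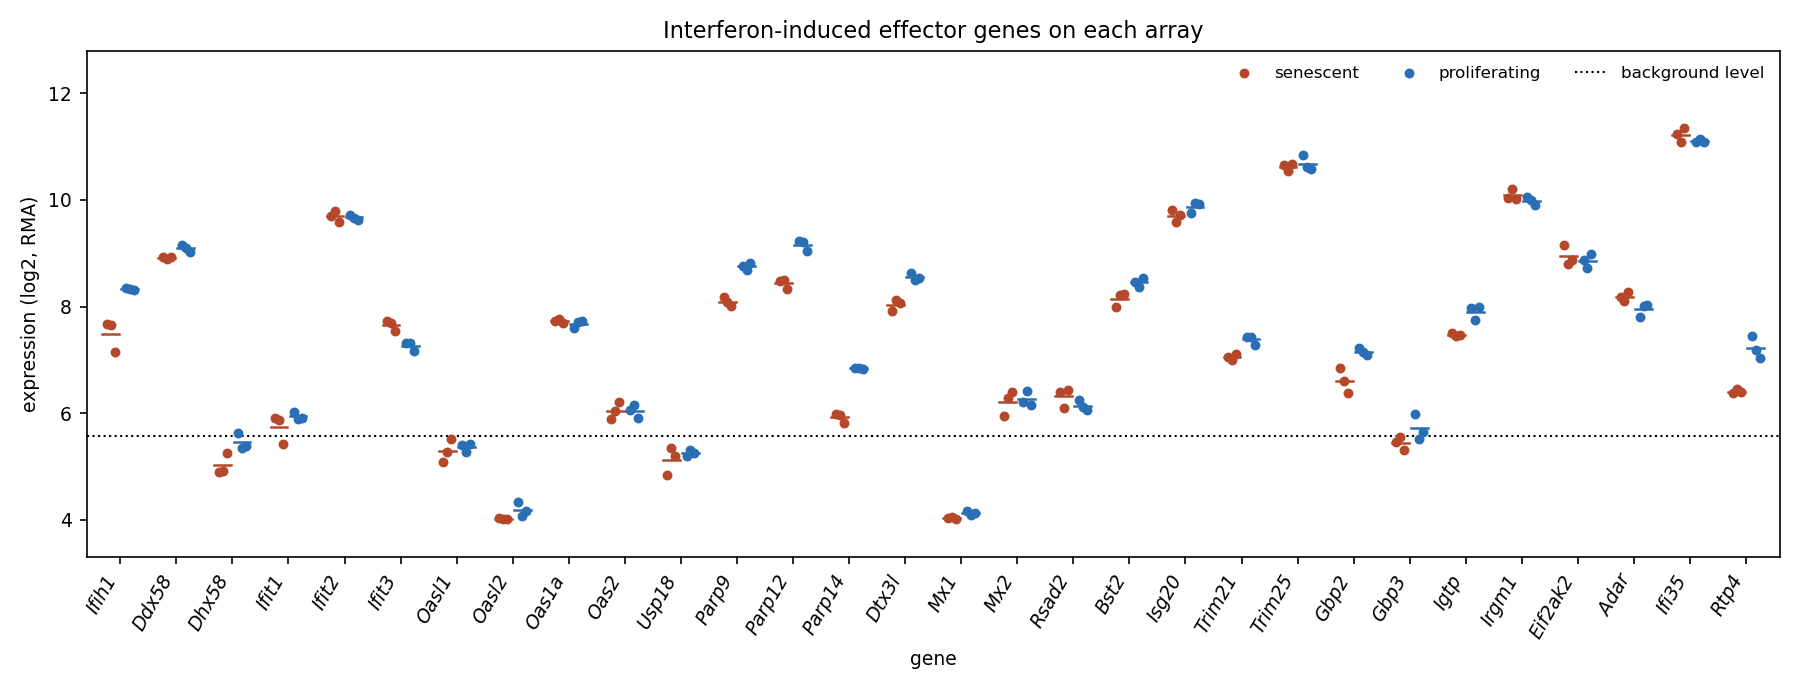
Level (log2, RMA, vertical axis) of the 30 measured effector genes on each senescent (left, red) and proliferating (right, blue) array, with group means as short lines and the background level of 5.57 dotted. Ifih1, Parp9, Parp12, Parp14, Dtx3l and Rtp4 show separated groups, while Oasl1, Oasl2, Usp18 and Mx1 stay below background in both.

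Eif2ak2 and Adar, which encode the double-stranded RNA-activated kinase PKR and an RNA-editing deaminase, depended on the probe set read. For Eif2ak2 the probe set with the highest mean read 9.15, 8.80 and 8.88 in senescent and 8.87, 8.73 and 8.99 in proliferating cells, a change of 0.08 ± 0.11. The other 2 gave -0.40 and -0.39, each short of the threshold over all probe sets (adjusted p = 0.0662 and 0.0539). For Adar the probe set with the highest mean read 8.18, 8.11 and 8.27 in senescent and 7.81, 8.01 and 8.02 in proliferating cells. That change was 0.24 ± 0.09 (adjusted p = 0.0911), and the others gave -0.21 and -0.14. Neither gene therefore has a settled direction.

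Over all 75 probe sets of the 44 genes, 20 were called lower and 1 higher, where the same call over all probe sets was made for 6.40% and 6.04%. Of the 20 members with more than 1 probe set, 5 had probe sets of opposite sign. Among the 9 genes called lower with several probe sets, 4 had a second one called lower, namely Ifnar1, Ifnar2, Dtx3l and Gbp2. For 5 members (Irf2, Irf3, Trim25, Gbp2 and Ifi35) the design of the probe set allows it to pick up more than 1 transcript.

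**Figure D4:**
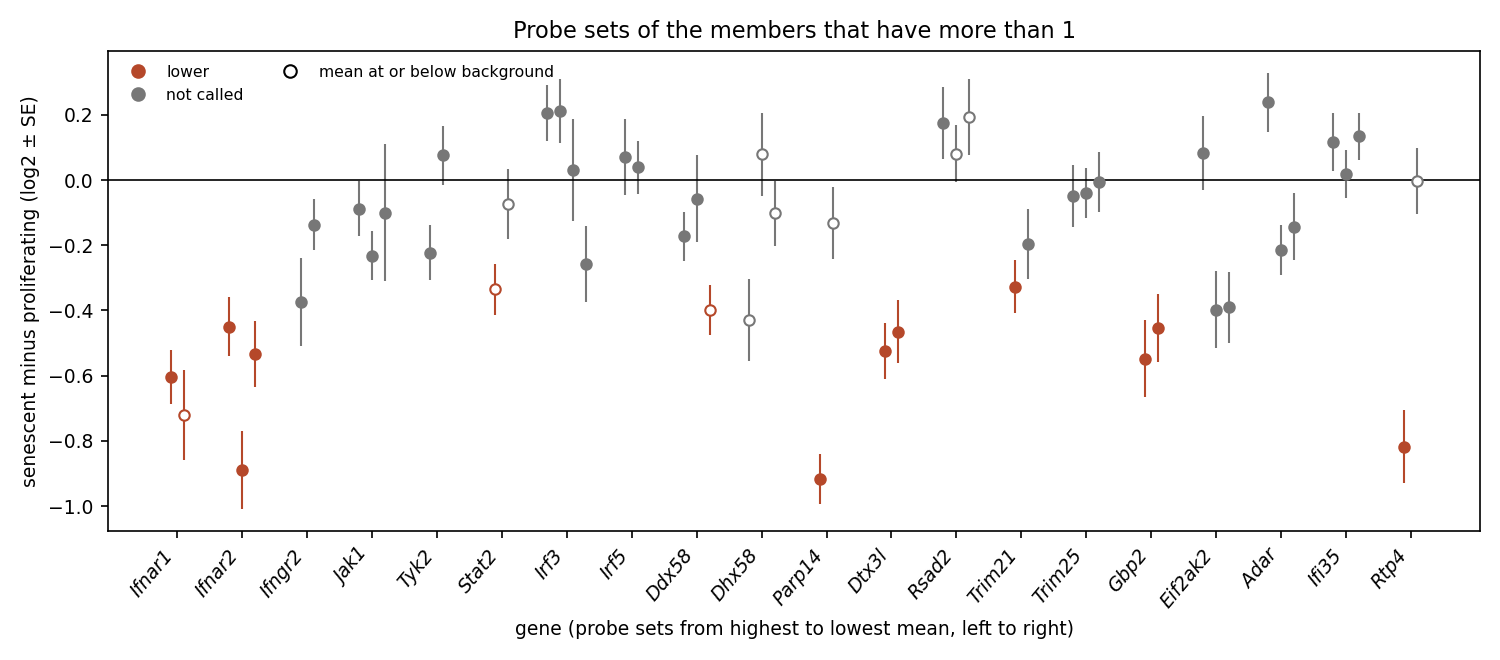
Senescent minus proliferating change (log2 ± SE, vertical axis) of each probe set of the 20 members that have more than 1, ordered within a gene by mean level; open circles have a mean at or below background. The 3 probe sets of Ifnar2 lie below 0 at -0.45 to -0.89, and those of Eif2ak2 and Adar lie on both sides of 0.

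Of the 36 members whose mean exceeded background, 15 were lower and 1 higher, where genes above background in general were lower in 14.7% and higher in 12.7%. Of the other 8 members, 2 were lower, Stat2 and Dhx58. Counted by separation, the senescent values lay wholly below the proliferating values in 22 members and wholly above in 3, against 19.6% and 17.4% of all genes. The 26 members not called had changes from -0.37 to 0.24, with 95% intervals reaching from -0.67 to 0.44. Among the 17 called lower, 12 calls held with each array left out in turn. They were Ifnar1, Ifnar2, Irf1, Irf9, Ifih1, the 4 PARP group genes, Gbp2, Igtp and Rtp4. Centring arrays on genes of middle level ended the calls of Irf2 (-0.22), Bst2 (-0.24), Trim21 (-0.26) and Dhx58 (-0.36). The second probe set of Stat2 gave -0.07.

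Some members lie side by side on a chromosome, and the RefSeq gene order was used to read their neighbours, a look chosen after the values were seen. Parp14, Dtx3l and Parp9 are consecutive, and all 3 were lower. Flanking genes here are the nearest measured genes with a mean above background, so dimmer genes between were passed over. Those on either side, Hspbap1 (0.03 ± 0.11) and Kpna1 (0.24 ± 0.09), were not called. In the receptor cluster the order is Ifnar2, Il10rb, Ifnar1 and Ifngr2. Il10rb, a receptor chain shared by interleukin 10 and lambda interferons, was also lower (-0.32 ± 0.09, adjusted p = 0.0383), a call that ended without any senescent replicate or proliferating replicate 2 or 3 (-0.37 to -0.24). Flanking this cluster, Paxbp1 was not called (-0.17 ± 0.08) and Tmem50b was higher (0.43 ± 0.07, adjusted p = 0.00349). In the Ifit cluster Ifit3 at 0.39 lies between genes that were not called, Ifit2 on one side and Ifit1bl1 (0.21 ± 0.09) on the other. Flanking genes were lower too at 3 further places, Kyat3 beside Gbp2 (-0.58 ± 0.09), Lipa beside Ifit2 (-0.24 ± 0.07) and 2610524H06Rik beside Oasl2 (-0.28 ± 0.08).

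**Figure D5:**
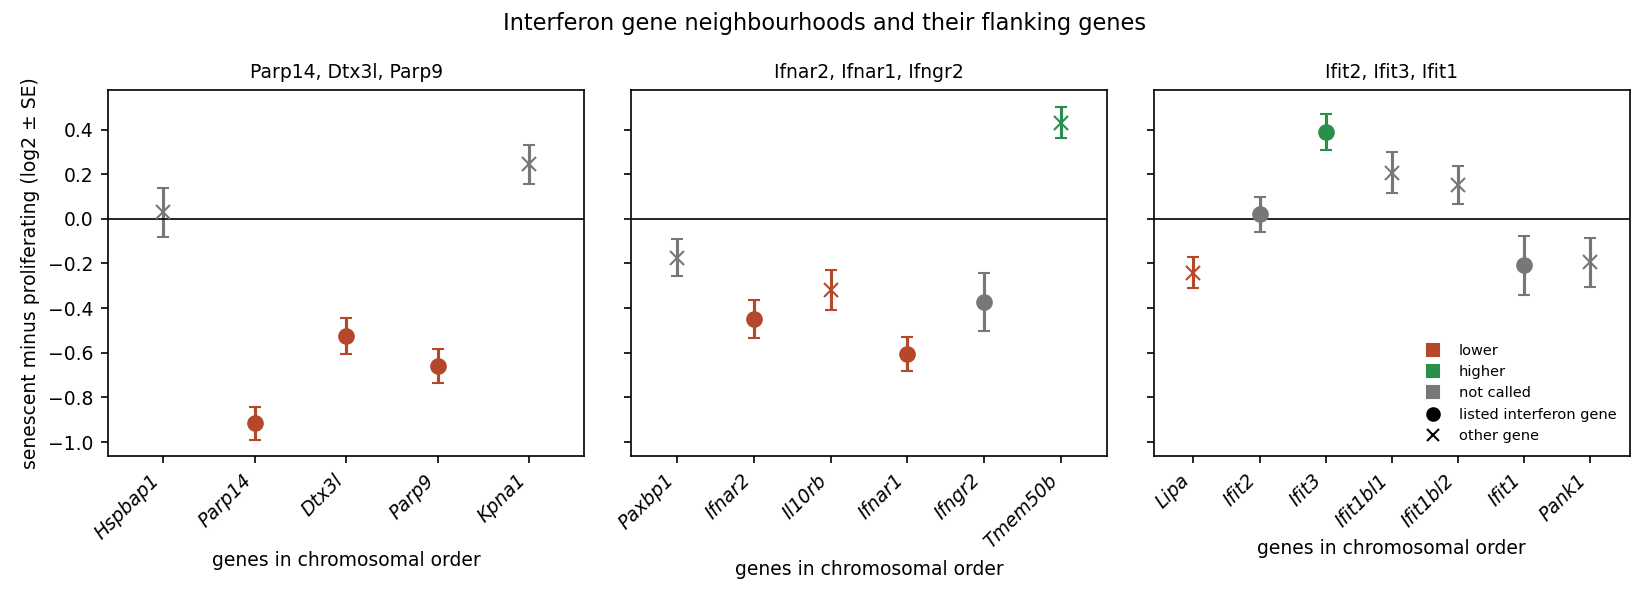
Senescent minus proliferating change (log2 ± SE, vertical axis) of genes in chromosomal order in 3 clusters. Circles are listed interferon genes, and crosses are their nearest measured neighbours with a mean above background. Parp14, Dtx3l and Parp9 fall between -0.92 and -0.53 with neighbours at 0.03 and 0.24. Ifit3 at 0.39 is higher relative to the bulk of genes on the array, and under spike-in scaling it was not called.

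The wider pathway was read from a further list of 88 interferon genes, of which 77 were measured. Of these, 19 were lower (24.7%, against 10.5% of all genes) and 7 higher (9.09%, against 9.49% of all genes), with a median of -0.06. That list too was chosen with earlier results of these data known, and the shares were not tested. Without senescent replicate 3 the number lower was 11, and without senescent replicate 1 or proliferating replicate 3 the number higher was 4. Interferon genes themselves gave no call: the 7 measured ligand genes ranged from -0.35 to 0.09, and 6 of them had means at or below background (limma, 0 at an unadjusted p under 0.05). In the receptor and signalling genes 3 of 11 were lower and 0 higher, namely Il10rb, Socs3 and Jak2. The Jak2 change was -0.27 ± 0.07, and it was not called without senescent replicate 1 or 3 or proliferating replicate 2 or 3 (-0.29 to -0.24). Of 12 genes that lead to interferon production 2 were lower and 2 higher (16.7% each), too few to set against the shares of all genes. Of 47 further induced genes 14 were lower (29.8%) and 5 higher (10.6%), the share higher being close to that of all genes.

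The 8 largest called changes of that list were all lower. Ifitm1, a membrane protein that restricts viral entry, read 6.12, 5.93 and 6.12 in senescent and 9.18, 7.42 and 7.22 in proliferating cells. Proliferating replicate 1 stood far above the other arrays, and the change was -1.88 ± 0.44 (adjusted p = 0.0191) with it and -1.26 ± 0.10 (adjusted p = 2.94e-04) without it. The Ifitm1 call ended without senescent replicate 1, 2 or 3 (-1.91, -1.82 and -1.91) and under a robust variance trend (adjusted p = 0.0676). Socs3, a feedback inhibitor of cytokine receptors, showed the same high array, with 10.13, 10.24 and 10.09 in senescent and 11.86, 11.10 and 11.07 in proliferating cells. Its change was -1.19 ± 0.19 (adjusted p = 0.00373), and -0.93 ± 0.08 without proliferating replicate 1.

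The GTPase gene Irgm2 was lower, with a change of -0.94 ± 0.16, as was Nmi, the partner of Ifi35, with -0.71 ± 0.07 (adjusted p = 2.69e-04). Sting1, the adaptor of cytosolic DNA sensing, read 9.03, 8.90 and 9.04 in senescent and 9.68, 9.69 and 9.62 in proliferating cells, a clear separation (-0.67 ± 0.07, adjusted p = 5.57e-04). Ly6e changed by -0.64 ± 0.09 (second probe set -0.24, not called), and Cxcl10, an interferon-induced T cell chemokine, by -0.57 ± 0.12. Leaving out senescent replicate 3 ended the Cxcl10 call (-0.50). Iigp1 was at least 1.04-fold lower, since it was below background on all senescent and 2 proliferating arrays, and its call ended without senescent replicate 2 or 3 (-0.56 and -0.58).

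The 7 higher genes of that list were no larger a share than among all genes, so their number is no result about the list. They were Pml, Ifi30, Tlr3, Trim26, Herc6, Ikbke and Ifi27, named after their values were seen, with changes from 0.28 to 0.53. The calls of Pml, Ifi30 and Trim26 held with any 1 array left out. That of Tlr3 was lost without senescent replicate 1 or 2 or proliferating replicate 1 (0.34, 0.45 and 0.40), and that of Herc6 without senescent replicate 1 or 2 or proliferating replicate 3 (0.33, 0.35 and 0.32). That of Ikbke was lost without senescent replicate 3 (0.26) or proliferating replicate 3 (0.30), and that of Ifi27 without any array other than senescent replicate 2 (0.23 to 0.30). The mean of the probe sets of Herc6 gave -0.03, the second probe set of Trim26 gave 0.20 and was not called, and 0 genes of the list were higher under spike-in scaling.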

How the data were processed

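The authors deposited 1 log2 value for each probe set and array, computed with RMA, per the submitters' processing notes. No version, filter or batch is stated in the labels. RNA was extracted with Trizol and labelled with biotin for Affymetrix arrays, per the labels' protocols. Of 45101 probe sets, 34958 had 1 gene symbol, 932 several and 9211 none; those with several or none were not named. Symbols were updated through a RefSeq table (GRCm38.p6), which left 18194 genes, each represented by its brightest probe set on average. Groups were taken from the titles. The groups were compared in limma 3.58.1 (R 4.3.3; lmFit, eBayes) with no covariate. Benjamini-Hochberg adjustment ran over all genes, or over all probe sets where so stated. No array was left out and no arrays were identical. The median standard error was 0.0884 log2 units, and the number of arrays limits the precision. The fit was tested on simulated data.

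A fold is given as a bound, against the background level of 5.57, where every array of the dimmer group was below it, and not at all where both group means were. The members and lists were chosen with earlier results of these data known. The rule for named genes took all measured members, Cdkn1a and Mdm2, and of the further pathway list the 8 called genes with the largest change. Other genes named (Il10rb, Jak2, the 7 higher genes of that list, flanking genes and called cell type markers) were chosen after their values were seen. Figures were drawn with matplotlib 3.10.9. Alternatives covered the probe set read, filters on level, scaling, the variance model, a replicate block and leaving out each array. The RefSeq promoter windows are those of GRCm38.p6.
The level of the hairpin's target transcript is not reported here.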

Additional observations from a re-analysis of the deposited data

How the results depend on the processing

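Without any 1 array, 12 to 15 members were lower and 0 to 1 higher, with medians of -0.20 to -0.16; without senescent replicate 1 no member was higher. The second brightest probe set gave 10 lower (6 effectors, against 11) and a median of -0.13. The 24 members with 1 probe set were read from that same probe set in this setting. With genes above the median gene only, 2 were higher and 7 effectors lower. Above background the median was -0.22, with fewer members tested. Centring on genes of middle level gave a median of -0.10 and 13 lower. Spike-in scaling gave 41 lower, 0 higher and a median of -0.77, where the median of all genes was -0.60; it gave 65 lower and 0 higher in the further pathway list. Over all genes, calls lower were 1223 with the second brightest probe set and 15146 with spike-in scaling, and calls higher 175 with spike-in scaling and 1128 without senescent replicate 1. Signs turned in members not called and in Dhx58 and Herc6, and in Ifit3 under spike-in scaling. Centring turned Ifngr1 (0.051), Mx2 (0.016) and Trim25 (0.020). The second brightest probe set turned Tyk2 (0.077), Dhx58 (0.079), Eif2ak2 (-0.40) and Adar (-0.21). The mean of probe sets turned Eif2ak2 (-0.23), Adar (-0.039) and Herc6 (-0.034). With 1 array left out the signs of these genes varied: Ifngr1 (-0.039 to 0.00098), Irf5 (-0.026 to 0.16), Ifit2 (-0.028 to 0.076), Oasl1 (-0.19 to 0.023), Oas2 (-0.080 to 0.079), Usp18 (-0.24 to 0.012), Mx2 (-0.14 to 0.074), Trim25 (-0.098 to 0.033) and Eif2ak2 (-0.021 to 0.15). The cause was not tested. Of the 17 calls lower, 10 held under each alternative that measured them, spike-in scaling aside. Irf1, Irf9, Ifih1, Parp9, Parp12 and Igtp are among these and have 1 probe set each. For them the alternatives on the probe set read used the same values again, so they were no check.

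Correlations of deviations between same-numbered arrays were 0.094, -0.068 and -0.15 for numbers 1 to 3. Those between arrays of unlike number ran from -0.21 to 0.24. With 3 arrays per group these values cannot decide whether the numbers pair arrays, and the labels do not say. With the replicate block 13 members were lower and 1 higher (median -0.17), and over all genes 1543 were lower and 1392 higher. The small number of arrays limits precision, and members below background carry little information on change.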
